A study of Mus musculus with 2 samples.

Results

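The clustered protocadherins are cell adhesion genes arranged in 3 neighbouring clusters, alpha, beta and gamma. They were chosen by gene symbol: every gene named Pcdha, Pcdhb or Pcdhg followed by its number or subtype letter. The annotation (GENCODE M21 on the mouse build mm10) holds 58 such gene IDs under 57 symbols, since 2 IDs carry the symbol Pcdha11, and 47 of them had at least 1 read, of 18510 annotated genes with a read. By cluster, 7 of 14 alpha, 19 of 22 beta and 21 of 22 gamma gene IDs had a read.

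RNA from left cerebral cortices of B6CASTF1/J mice (an F1 hybrid of the B6 and CAST strains), all female and aged 14 days, was sequenced as long reads. There were 2 libraries, numbered as biological replicates 1 and 2, each from 2 µg of total RNA with spike-in RNA added. Both came from the same tissue, sex, age and strain, with no treatment and no second genotype, so the comparisons were those between genes, between transcript forms and between the 2 libraries. One label for replicate 1 can be read as several pooled females and that for replicate 2 as 1 animal; both carry the same donor entry. Whether the libraries came from separate animals is not stated, so the spread between them may be partly technical.

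A clustered protocadherin is a cadherin-like protein of the cell surface that binds the same isoform on a neighbouring cell, and the set of isoforms in a neuron gives it an identity used in dendrite self-avoidance and axon tiling. In the alpha and gamma clusters each gene has its own promoter and its own large variable exon, which encodes the extracellular and transmembrane parts and is spliced to 3 constant exons shared by the whole cluster. The constant exons encode the common end of the intracellular part. Beta genes have no constant exons and are usually a lone exon. Neurons are known to choose most alpha, beta and gamma promoters at random, with CTCF and cohesin looping the chosen promoter to distant enhancers, while the C-type genes (Pcdhac1, Pcdhac2, Pcdhgc3, Pcdhgc4 and Pcdhgc5) are regulated apart from that choice.

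All members lie on the plus strand of chromosome 18. The alpha cluster spans positions 36930184 to 37187661, the beta cluster 37264938 to 37524479 and the gamma cluster 37661793 to 37841873 (mm10, 1-based). The 3 alpha constant exons are 59, 89 and 2712 bases long, and the 3 gamma constant exons 59, 89 and 1971 bases. The last constant exon, nearest the 3′ end, starts at position 37184946 in the alpha cluster and at 37839903 in the gamma cluster.

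Replicate 1 held 1072344 reads assigned to mouse models and replicate 2 held 753520. One read therefore stood for 0.933 reads per 1000000 mouse reads (RPM) in replicate 1 and for 1.33 RPM in replicate 2, and a gene with no read could still be present at up to 2.80 RPM in replicate 1 or 3.98 RPM in replicate 2, taking 3 reads as the limit. The two-sided exact Poisson interval of 0 reads is wider and reaches 3.44 RPM and 4.90 RPM. Each long read was counted as 1 transcript, and levels were not divided by length. Whether transcripts of different length were read equally well was not tested, so shares between forms are shares of reads. Intervals below are 95% intervals and cover counting error only. Oligodendrocyte markers summed to 4721 RPM in replicate 1 and 2711 RPM in replicate 2, and choroid plexus markers to 28.9 RPM and 265 RPM. Of these lists, 3 of 4 oligodendrocyte markers and 1 of 4 choroid plexus markers (Ttr) were called between the libraries by the test described below; Kl, of the choroid plexus, was at 0 in both. Their part in the values below was not tested. Markers of excitatory neurons, which fit the labelled tissue, summed to 1535 RPM in replicate 1 and 1352 RPM in replicate 2. Of the serotonergic neuron markers, 2 of 3 were at 0 in both libraries. In bulk tissue, fewer cells of a type and less RNA per cell cannot be told apart.

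By the deposited gene labels, the clustered protocadherins summed to 598 RPM (641 reads) in replicate 1 and 579 RPM (436 reads) in replicate 2. The gamma cluster was the largest, with 419 RPM in replicate 1 and 405 RPM in replicate 2. The alpha cluster had 84.9 RPM and 90.2 RPM in replicates 1 and 2, and the beta cluster had 94.2 RPM and 83.6 RPM. The gamma cluster thus held 70.0% of all reads labelled with a clustered protocadherin gene in either library, and the order of alpha and beta differed between the libraries, with counting intervals that overlapped.

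In these clusters a gene label does not by itself say which promoter made a transcript, because constant exons belong to every gene of the cluster. Reads were therefore also assigned by the variable exon they hold, with at least 50 bases of overlap required. Counts and levels per gene by variable exon take reads with a lone variable exon and leave out reads with pieces of 2. The shares of labelled reads that follow include both kinds. Of the reads labelled with an alpha gene, 43 of 91 in replicate 1 (47.3%, Wilson interval 37.3 to 57.4) and 33 of 68 in replicate 2 (48.5%, 37.1 to 60.2) held the variable exon of that gene. In the gamma cluster the share was 362 of 449 reads (80.6%, 76.7 to 84.0, replicate 1) and 236 of 305 (77.4%, 72.4 to 81.7, replicate 2). In the beta cluster, where a gene is its own exon, all 101 and all 63 labelled reads did.

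The clearest case was Pcdhga2, an A-type gamma gene, which ranked second among all members by label. Its label was carried by 82 reads in replicate 1 and by 67 in replicate 2. All of these reads lay on the last gamma constant exon alone, and no read in either library held the Pcdhga2 variable exon. The label Pcdha2, carried by 47 reads in replicate 1 and by 16 in replicate 2, likewise covered no read with the Pcdha2 variable exon as its lone variable exon. Of these, 17 reads in replicate 1 and 0 in replicate 2 lay on the last alpha constant exon alone, 11 and 8 held the variable exon of Pcdhac2, and 18 and 5 held pieces of 2 variable exons.

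**Figure D1:**
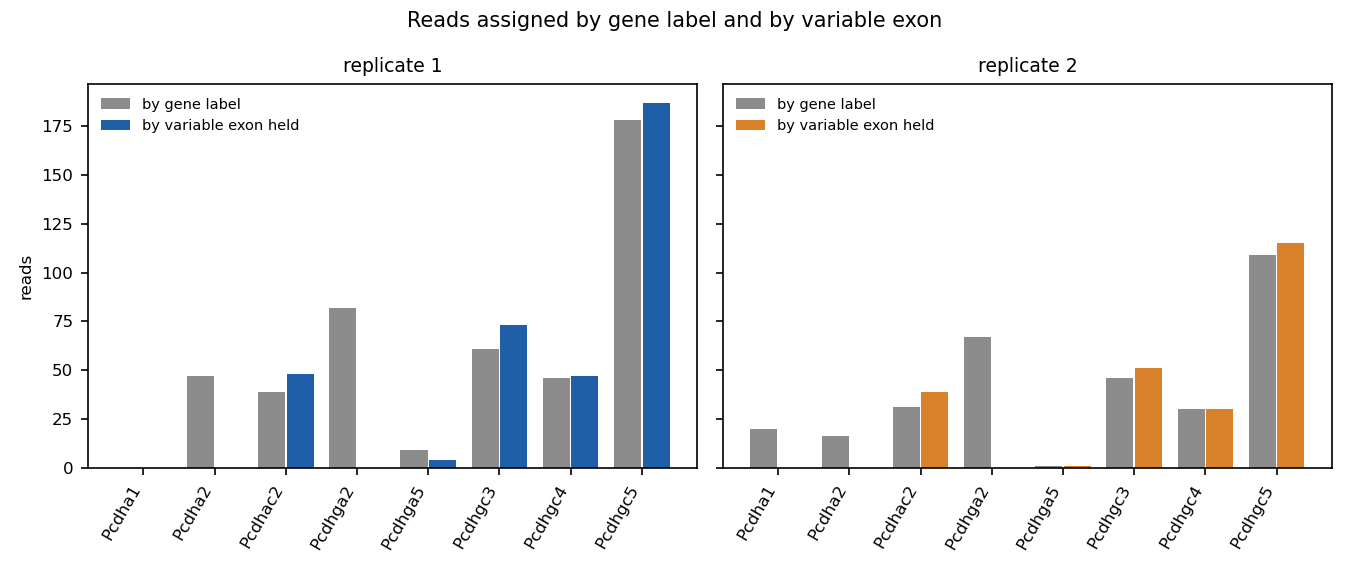
Reads (vertical axis) assigned to 8 alpha and gamma genes by the deposited gene label (grey) and by the lone variable exon held (coloured), with replicate 1 left and replicate 2 right. Pcdhga2 has 82 and 67 reads by label and 0 by variable exon, while Pcdhgc5 has 178 and 109 by label and 187 and 115 by variable exon.

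Counted by variable exon, the C-type genes made up 355 of 540 reads with a lone variable exon in replicate 1 (65.7%, 61.6 to 69.6) and 236 of 354 in replicate 2 (66.7%, 61.6 to 71.4). Reads with pieces of 2 variable exons, 18 and 5 in alpha and 4 and 2 in gamma, are outside these counts. These 5 genes thus outnumbered the other 53 gene IDs together, which had 185 reads in replicate 1 and 118 in replicate 2. By gene label the C-type share was lower, at 50.5% in replicate 1 and 49.5% in replicate 2. The gamma cluster kept its lead by variable exon, with 359 RPM and 329 RPM in replicates 1 and 2, against 94.2 RPM and 86.3 RPM for beta and 50.4 RPM and 54.4 RPM for alpha.

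Pcdhgc5 (ENSMUSG00000102543.5), the C-type gene nearest to the gamma constant exons, was the most abundant member. Its variable exon was held by 187 reads in replicate 1 and 115 in replicate 2, which is 174 RPM (150 to 201) and 153 RPM (126 to 183) with exact Poisson intervals. It supplied 34.6% of the reads with a lone variable exon of all members in replicate 1 (30.7 to 38.7) and 32.5% in replicate 2 (27.8 to 37.5). Its mean level of 164 ± 15.4 RPM (SD, n = 2) was above that of 93.8% of all annotated genes with a read.

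Pcdhgc3, whose protein is known to take part in dendrite branching through Axin1, was the next, at 68.1 RPM in replicate 1 (73 reads) and 67.7 RPM in replicate 2 (51 reads). Its interval lay below that of Pcdhgc5 in both libraries. Pcdhac2, the alpha C-type gene known for the tiling of serotonergic axons, had 44.8 RPM in replicate 1 (48 reads) and 51.8 RPM in replicate 2 (39 reads). Pcdhgc4, the isoform known to be needed for the survival of cortical interneurons, had 43.8 RPM in replicate 1 (47 reads) and 39.8 RPM in replicate 2 (30 reads). Pcdhac2 and Pcdhgc4 were not ranked, since their intervals overlapped in both libraries. Each also overlapped the interval of Pcdhgc3 in both, although Pcdhgc3 had more reads than either gene in both libraries. Overlap of intervals is not a test of a difference, and no test between genes was run. The fifth C-type gene, Pcdhac1, had 0 reads in replicate 1 and 1 read in replicate 2, and that read was labelled Pcdha2.

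In the alpha cluster, the 12 gene IDs outside the C-type had 6 reads in replicate 1 and 1 in replicate 2 with a lone variable exon, against 48 and 39 for Pcdhac2. Reads that hold pieces of 2 variable exons, described further on, all came from such genes and bring their number to 24 in replicate 1 and 6 in replicate 2. The reads with a lone variable exon were 2 of Pcdha3, 2 of Pcdha4, 1 of Pcdha11 and 1 of Pcdha12 in replicate 1, and 1 of Pcdha12 in replicate 2. The variable exons of Pcdha1, Pcdha2, Pcdha5, Pcdha6, Pcdha7, Pcdha8 and Pcdha9 were held alone by no read, as was that of the other Pcdha11 ID. At this depth such genes could still be present below the limits given above.

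Among the A-type gamma genes, Pcdhga11 and Pcdhga12 led. By variable exon, Pcdhga11 had 16 reads in replicate 1 and 14 in replicate 2. The counts of Pcdhga12 were 17 and 12. Pcdhga7 followed with 9 and 10 reads, and Pcdhga6 with 11 and 2. Pcdhga5 had 9 and 1 reads by label, of which 4 and 1 held its variable exon. Together the A-type genes had 71 variable-exon reads in replicate 1 and 42 in replicate 2. The B-type gamma genes had 7 and 10 reads, and no B-type gene reached 10 reads over both libraries. Pcdhga11 and Pcdhga12 are the A-type genes nearest to the C-type genes and the constant exons.

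In the beta cluster, 18 of 22 genes had a read in replicate 1 and 17 in replicate 2. Pcdhb20 had 20 reads in replicate 1 and 8 in replicate 2. Next came Pcdhb9, with 14 and 10 by label. Pcdhb12 followed with 13 and 5 reads, Pcdhb7 with 9 and 7, and Pcdhb17 with 10 and 2. Pcdhb14 had 6 and 4 reads and Pcdhb19 had 9 and 1. Pcdhb13, with 1 and 8 reads, and Pcdhb4, with 2 and 6, fell short of 10. The other beta genes had fewer or none, and the intervals of the leading pair, Pcdhb20 and Pcdhb9, overlapped in both libraries. Of all 58 members by label, 19 had 10 or more reads, 28 had 1 to 9 and 11 had none.

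**Figure D2:**
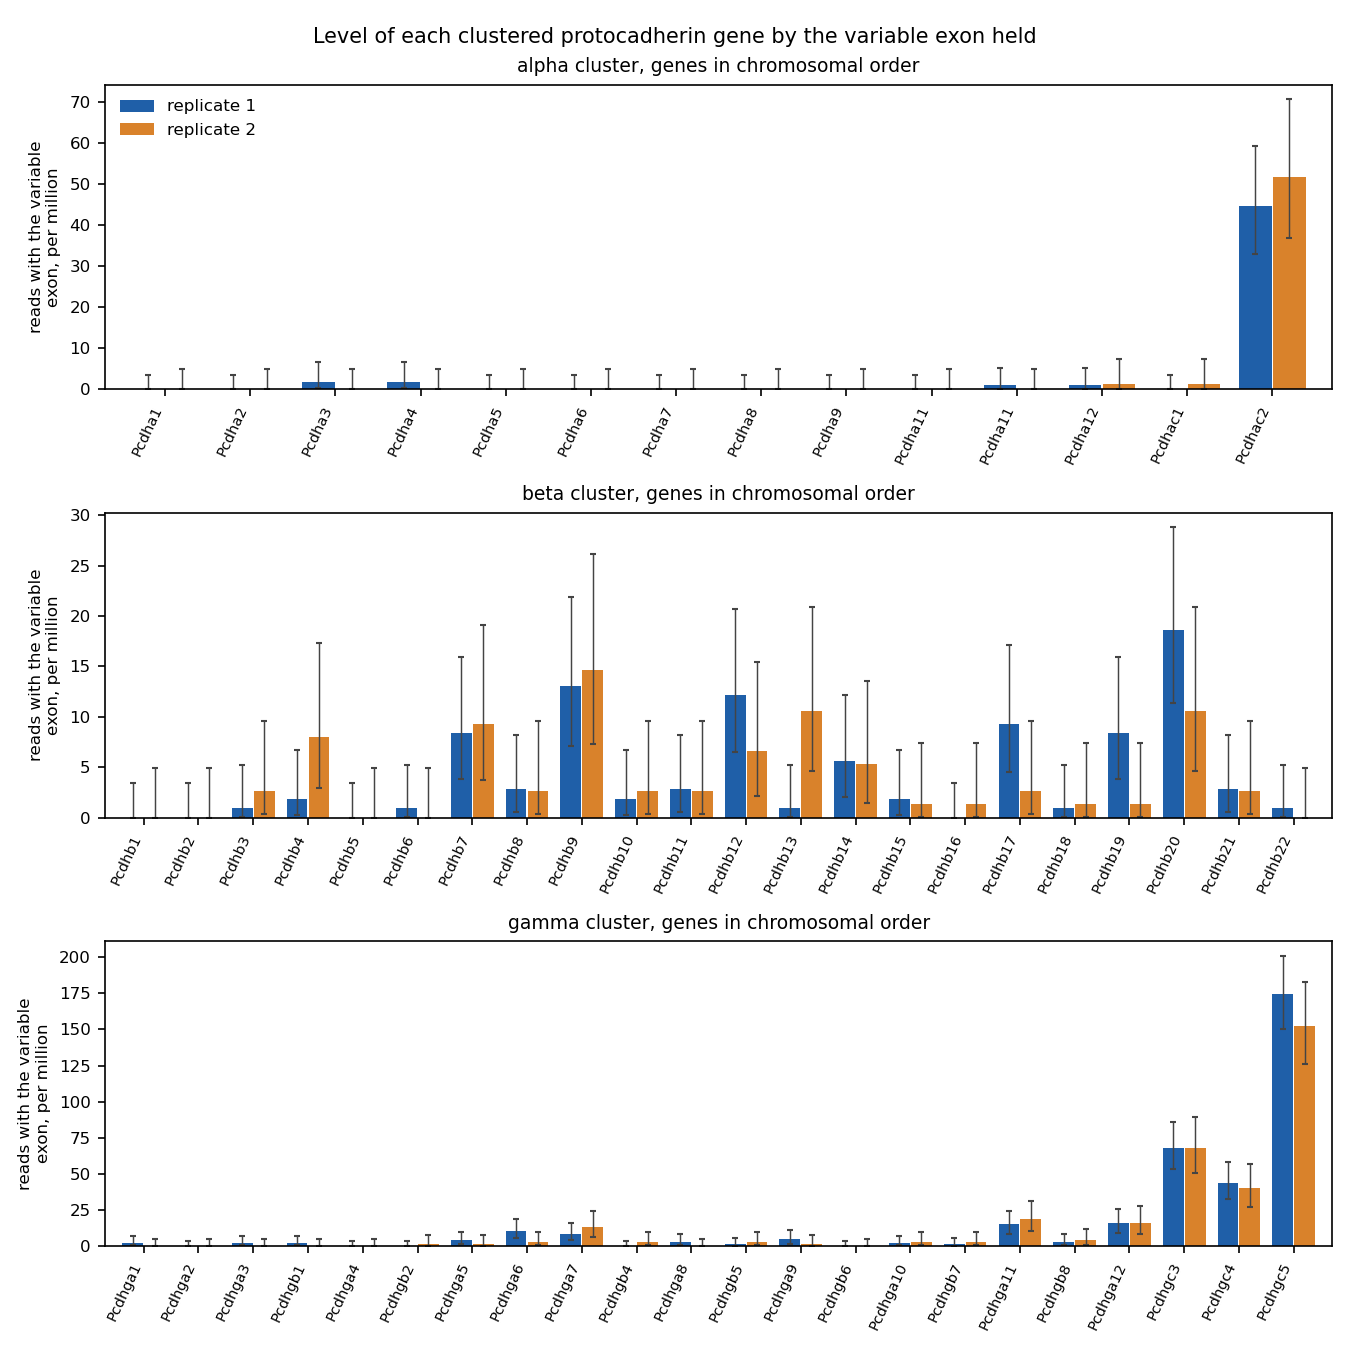
Reads holding each gene's variable exon as their lone variable exon, in RPM (vertical axis, scale differs by panel), for the alpha, beta and gamma genes in chromosomal order, in replicate 1 (blue) and replicate 2 (orange), with exact Poisson 95% intervals for counting error. Reads with pieces of 2 variable exons are left out, and with them Pcdha12 would have 19 and 6 reads in place of 1 and 1. Pcdhac2 in the alpha cluster (44.8 and 51.8 RPM) and Pcdhgc5 in the gamma cluster (174 and 153 RPM) are the tallest bars of their panels, and no beta gene exceeds 18.7 RPM.

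The 2 libraries were compared gene by gene with a two-sided exact binomial test over the 11339 genes with 10 or more reads in total, with Benjamini-Hochberg adjustment over all of them. The test compares these 2 libraries and not conditions. Of the 19 members tested, 1 was called at an adjusted p below 0.05, against 0.882% of all genes tested. That call was lower in replicate 1; of all genes tested, 0.362% were called lower and 0.52% higher in replicate 1. The median log2 ratio of replicate 1 over replicate 2 was 0.10 for the 19 members and 0.0035 for all genes tested.

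The called member was Pcdha1, with 0 reads in replicate 1 and 20 in replicate 2 (adjusted p = 1.06e-05 in the exact binomial test). Its level by label was 9.49-fold lower in replicate 1 when 3 reads were taken in place of 0 in that library. That ratio leaves out counting error in the 20 reads. With counting error, the upper end of the interval of the log2 ratio of replicate 1 over replicate 2 was -2.81. All 20 reads lay on the last alpha constant exon alone. Reads of that structure numbered 21 in replicate 1 (19.6 RPM) and 20 in replicate 2 (26.5 RPM), and in replicate 1 they were labelled Pcdha2 (17 reads), Gm37388 (3) and Pcdhac2 (1). The same shared exon was thus filed under different gene names in the 2 libraries, and no read of either library held the Pcdha1 variable exon.

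Counted by variable exon, 15 members had 10 or more reads and none was called. None of them reached an unadjusted p below 0.05 either, against 8.60% of all genes by label, and the lowest adjusted p of a member in the exact binomial test was 0.58. Their log2 ratios ran between -0.65 and 2.15, with 9 members higher and 6 lower in replicate 1. For Pcdhgc5 the log2 ratio of replicate 1 over replicate 2 was 0.19 (interval -0.15 to 0.54), and for Pcdhgc3 it was 0.00 (-0.53 to 0.55). The wide ratios belonged to genes with few reads, such as Pcdhb19 with 9 and 1.

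**Figure D3:**
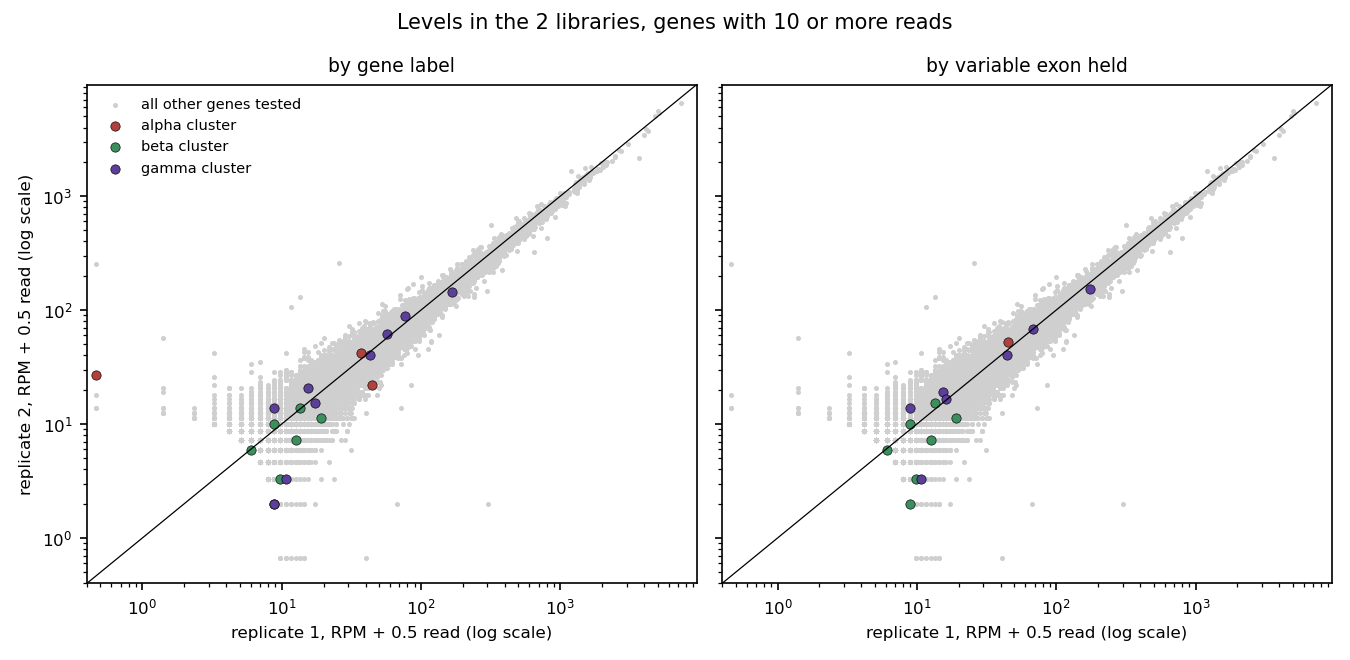
Level in replicate 1 (horizontal) against replicate 2 (vertical), both in RPM with 0.5 read added and on log axes, for all other genes tested (grey) and the alpha, beta and gamma members (red, green and violet) with 10 or more reads, by gene label (left) and by lone variable exon (right). The line marks equal levels; Pcdha1, with 0 and 20 reads by label, lies far from it in the left panel and is absent from the right.

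Nearly every read with a variable exon also held the constant exons. With reads of 2 variable exons included, the share was 71 of 72 reads (98.6%, replicate 1) and 46 of 46 (replicate 2) for the alpha cluster. For the gamma cluster it was 382 of 389 (98.2%) and 245 of 250 (98.0%). Of these gamma reads, 15 in replicate 1 and 6 in replicate 2 kept the intron before the first constant exon, which leaves 367 of 389 (94.3%) and 239 of 250 (95.6%) spliced to it. In the opposite direction, 22 of 94 alpha reads in replicate 1 (23.4%) and 22 of 68 in replicate 2 (32.4%) held constant exons and no variable exon. In the gamma cluster these were 101 of 490 reads (20.6%, replicate 1) and 77 of 327 (23.5%, replicate 2), of which 19 and 9 had another first exon. Most reads without a variable exon lay on the last constant exon alone, the exon nearest the 3′ end of the transcript, and reads on that exon alone do not show which promoter was used. Annotated alpha transcripts are 5206 to 5888 bases long and gamma transcripts 4615 to 5777 bases, taking the longest of each gene.

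**Figure D4:**
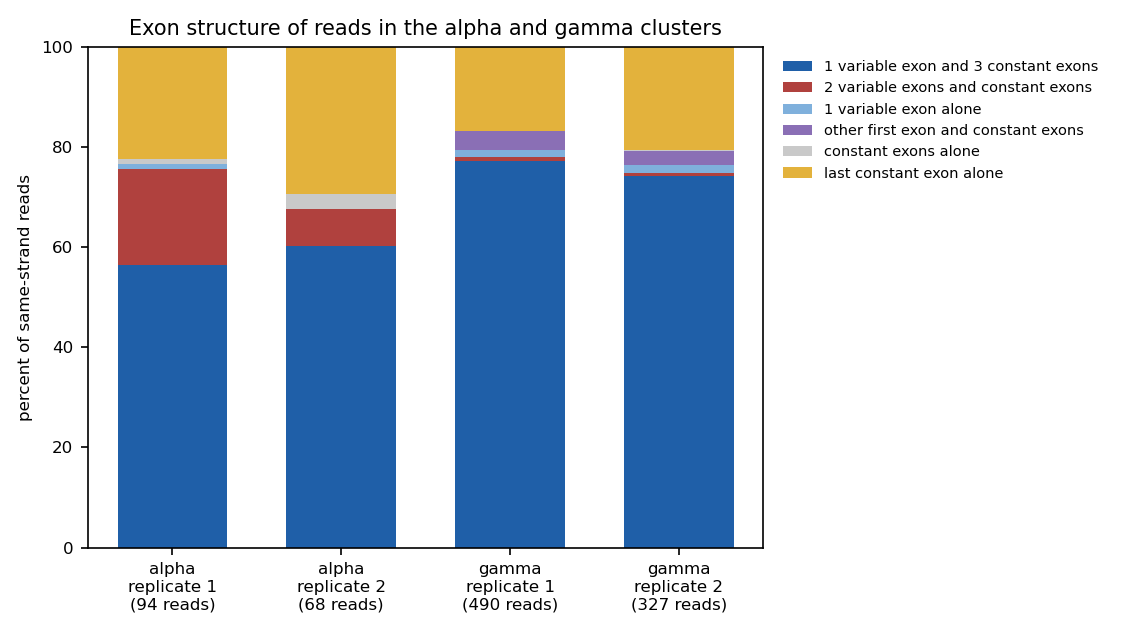
Share of same-strand reads of the alpha and gamma clusters (vertical axis, percent) by exon structure, one bar per library with its number of reads. Reads with 1 variable exon and 3 constant exons, with or without the intron between them, take 56.4% and 60.3% in alpha and 77.1% and 74.3% in gamma (replicates 1 and 2), and reads with 2 variable exons take 19.1% and 7.35% in alpha.

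Pcdhgc5 reads left the variable exon at different points. The annotated long form Pcdhgc5-201, with 2460 of its 2832 coding bases in the variable exon, had 119 reads in replicate 1 and 67 in replicate 2. A junction that starts inside the variable exon (an inner donor) was seen in 50 of 187 Pcdhgc5 reads in replicate 1 (26.7%, Wilson interval 20.9 to 33.5) and 41 of 115 in replicate 2 (35.7%, 27.5 to 44.7). Most of these were the annotated form Pcdhgc5-204, with 40 and 30 reads. Its first exon is 147 bases long and ends 200 bases into the variable exon, so it lacks nearly all of the extracellular coding sequence, and the annotation gives it 165 coding bases. The junction at that point, with 41 of the 50 and 30 of the 41 reads, does not have the usual GT at its start. Whether it arose by splicing was not tested. The form Pcdhgc5-203, with 321 coding bases, had 3 and 6 reads. The form Pcdhgc5-202, which keeps the intron between the variable exon and the first constant exon, had 15 and 6.

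With the junction without GT counted, the share with an inner donor was lower for the other C-type genes. It was 7 of 73 Pcdhgc3 reads in replicate 1 (9.59%) and 5 of 51 in replicate 2 (9.80%). It was 2 of 43 and 2 of 27 spliced reads for Pcdhgc4, and 0 of 48 and 3 of 39 for Pcdhac2. Over the A-type and B-type gamma genes it was 2 of 75 reads (2.67%, replicate 1) and 1 of 50 (2.00%, replicate 2). The Pcdhgc5 interval lay above those of Pcdhgc3, Pcdhgc4 and Pcdhac2 in both libraries, with the junction without GT counted in it. That junction had 41 of the 50 Pcdhgc5 reads with an inner donor in replicate 1 and 30 of the 41 in replicate 2. The other inner donors took a smaller share of all Pcdhgc5 reads than inner donors took of Pcdhgc3 reads, in both libraries. The contrast between these genes thus rests on the junction without GT. All 7 and 5 Pcdhgc3 reads with an inner donor carried the label Gm42416, a gene that overlaps the cluster.

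**Figure D5:**
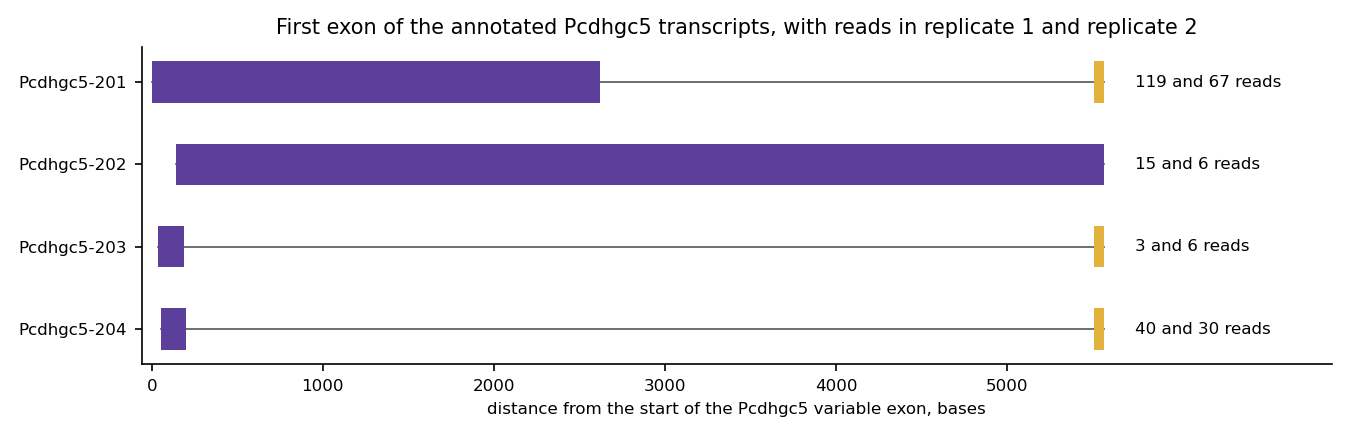
First exon (violet) and first constant exon (yellow) of the 4 annotated Pcdhgc5 transcripts, drawn to scale by distance in bases from the start of the Pcdhgc5 variable exon, with lines for introns and the reads of replicate 1 and replicate 2 at the right. In Pcdhgc5-202 the violet exon runs through the kept intron and the first constant exon; Pcdhgc5-204 has a 147-base first exon and 40 and 30 reads.

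Some reads held pieces of 2 variable exons. In the alpha cluster they were 18 of 71 joined reads in replicate 1 (25.4%) and 5 of 46 in replicate 2 (10.9%), with overlapping Wilson intervals. In the gamma cluster they were 4 of 382 and 2 of 245; 1 of the 4 in replicate 1 held pieces of the beta exons Pcdhb9 and Pcdhb20 joined to the gamma constant exons, and the others held pieces of 2 gamma exons. Every alpha read of this kind began in one of Pcdha2, Pcdha4, Pcdha5, Pcdha6, Pcdha9 or Pcdha11, crossed within the first 228 to 465 bases of that exon, and continued in Pcdha12. Against these, 1 read in each library held Pcdha12 as its lone variable exon.

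Between the 2 variable exons, these alpha reads used 9 different junctions, 4 of them in both libraries, and all 9 had GT and AG at the intron ends. At 6 of the junctions, with 15 reads in replicate 1 and 5 in replicate 2, the read entered Pcdha12 at its base 310. At those 6, the sequence around the crossing was identical in the 2 exons over 20 to 102 bases. The exact crossing point within the repeat is therefore not fixed by the sequence, and the GT and AG there depend on where it is placed. Over all 9 junctions the median length of the repeat was 80 bases (range 1 to 102), and at 7 it was 10 bases or more. The alpha variable exons, C-type genes aside, are alike, with a median pairwise identity of 78.0%. The median was 73.9% among beta exons (long ones cut), 71.7% among gamma A-type exons, 72.6% among gamma B-type exons and 62.8% among C-type exons. The most alike pair had 84.2% in alpha and 87.9% in beta. The part of these repeats in the crossings was not tested. Most of these alpha reads also left Pcdha12 short of the annotated end of its variable exon, which is 2475 bases long. The most common such point was base 2457, with 6 reads in replicate 1 and 2 in replicate 2, and it had GT. The point at base 2453, with 3 and 1 reads, did not have GT. Whether these reads arose by splicing was not tested. By label all the alpha reads of this kind count as Pcdha2.

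The last alpha constant exon was itself spliced in some reads. An intron of 428 bases inside it (chromosome 18, 37185048 to 37185475), annotated in 5 alpha genes, was removed in 17 of 72 alpha reads that reach it through the second constant exon in replicate 1 (23.6%, 15.3 to 34.6) and in 7 of 48 in replicate 2 (14.6%, 7.25 to 27.2). Among Pcdhac2 reads the counts were 11 of 48 in replicate 1 and 5 of 39 in replicate 2. The annotated Pcdha1 transcripts show what this changes in the protein: the last constant exon gives 308 coding bases in Pcdha1-201 and 170 in Pcdha1-202. In the gamma cluster, small shifts were seen at the constant exons. The second was entered 3 bases early in 5 of 401 reads (replicate 1) and 2 of 254 (replicate 2), and the first was entered 4 bases late in 4 of 385 and 4 of 247. Of the reads entered late, 3 in replicate 1 and 3 in replicate 2 were Pcdhgc5 reads that left from inside the variable exon.

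A further 18 reads in replicate 1 and 7 in replicate 2 were labelled Gm38182 and began in another first exon shortly upstream of the gamma constant exons. In all, 41 of 490 same-strand gamma reads in replicate 1 (8.37%) and 22 of 327 in replicate 2 (6.73%) carried a label other than a gamma protocadherin gene. Sums over the gamma gene labels leave these reads out.

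By model class, 77.7% of the members' reads in replicate 1 and 75.0% in replicate 2 matched an annotated transcript, against 72.7% and 71.2% over all annotated genes. Incomplete matches, whose splice chain is a part of an annotated one, took 15.8% and 20.4% of the members' reads, against 10.6% and 11.6% over all annotated genes. Models that overlap a gene without matching its splicing (the class Genomic) took 0.624% and 0.459%, against 6.04% and 6.61%. The beta cluster was nearly all annotated, at 98.0% in replicate 1, while in the alpha cluster the share was 45.1% and 47.1%.

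The genes that act with the clustered protocadherins were taken from 3 lists. Of 12 regulators, 9 were tested between libraries and 0 were called by the exact binomial test, against 0.882% of all genes; Smc1a and Smc3, subunits of cohesin, averaged 48.2 ± 4.36 and 38.6 ± 11.4 RPM, and Ctcf, which binds the promoters and enhancers of the clusters, 25.0 ± 1.57 RPM (SD, n = 2). Of 14 partners and effectors none was called; Fyn, a kinase, averaged 294 ± 1.27 RPM, and Nckap1 and Wasf1, parts of the WAVE actin-regulating complex bound by protocadherin tails, 273 ± 55.7 and 212 ± 2.74 RPM. Of 12 protocadherin genes outside the clusters, 10 were tested and none was called; Pcdh8 averaged 106 ± 26.9 RPM, Pcdh10 45.7 ± 6.52 RPM and Pcdh19 27.2 ± 2.84 RPM. Pcdhgc5 by its variable exon thus lay above each of the 12 non-clustered genes in mean level. No gene of the 3 lists was at 0 in both libraries.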

How the data were processed

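RNA of 2 cortex libraries was read as long reads. Per the file headers and the notes deposited with each library, the authors assigned reads to transcript models (TALON, named in the annotation files) on mm10 with GENCODE M21 and deposited raw read counts per model; the aligner and all versions were not given in the sources used here. Exon structure came from the deposited model annotations. For annotated models the exon ends are the annotation's, so a read may start anywhere within the variable exon.

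The member genes, gene lists and tests were chosen with earlier results of these data known. Counts were summed per gene label, with spike-ins left out, and scaled to RPM over mouse reads (1072344 and 753520). A model held a variable exon when at least 50 bases of an exon overlapped it. That exon is the longest annotated first exon spliced to the first constant exon. Counts and levels per gene by variable exon take models with a lone variable exon. A two-sided exact binomial test set replicate 1 against replicate 2 over genes with at least 10 reads, Benjamini-Hochberg adjusted; log2 ratios used a pseudocount of 0.5 reads. With 1 group, no count model with replicates could be fitted, so edgeR 4.0.16 and DESeq2 1.42.0 served only for scaling alternatives (R 4.3.3). The test was also run on simulated counts with counting error alone. That run does not give its error rate in these libraries, which differ by more than counting error. The libraries are not duplicates (chi-square per degree of freedom 1.58). Identity between variable exons is the share of aligned, gap-free positions that match in a global alignment of GENCODE transcripts (Biopython 1.88). Python 3.11.15, pandas 2.3.3, numpy 2.4.6, scipy 1.17.1 and matplotlib 3.10.9 were used. Every member with 10 or more reads, and every C-type gene, is named with its reads; members with 1 to 9 reads are given by count, and those named among them were chosen after their values were seen. Of each pathway list the 3 most abundant genes are named.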

Additional observations from a re-analysis of the deposited data

Results flagged for a closer look

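An antisense model outside the annotation lay in the gamma cluster between the first and the second constant exon (chromosome 18, 37830603 to 37831784, mm10). It had 4 reads in replicate 1 and 6 in replicate 2, above the 3 reads that a count of 0 allows. It was flagged as signal in data that the comparisons of gene levels do not use.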

How the results depend on the processing

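Counts of genes and calls depended on the threshold and on how reads were assigned. The number of members with 10 or more reads, 19, was 11 at a minimum of 20 reads and 47 at a minimum of 1; leaving out a library gave 11 to 13. The call of Pcdha1, the only member called, held under TMM factors, DESeq2 size factors, a pseudocount of 2 reads, minima of 20 and 1 reads and without models of the class Genomic; it was lost with annotated transcripts alone and by variable exon, where 0 members were called. Both of those settings drop the reads on the last constant exon from gene labels. Over all genes, 35 were called with annotated transcripts alone and 176 without models of the class Genomic, against 100. The mean alpha level, 87.6 RPM, was 61.8 with annotated transcripts alone, 92.6 without the class Genomic and 52.4 by variable exon. For beta, 88.9 RPM became 133 with annotated transcripts alone; for gamma, 412 RPM became 491, 437 and 344 under the same 3 settings. Sums by variable exon were scaled to all mouse reads, and those of the other 2 settings to the reads kept. Of the 19 levels of named members, 13 moved by more than the SD of the 2 libraries with annotated transcripts alone, 5 by variable exon and 4 without the class Genomic; no log2 ratio of a named member changed its side of the threshold where it was tested. Leaving out a library gave 84.9 to 90.2, 83.6 to 94.2 and 405 to 419 RPM. With an overlap of 200 bases, the mean share of gamma-labelled reads that hold the exon of their gene was 67.9% in place of 79.0%, since the short Pcdhgc5 first exons have 147 bases, and the share of gamma variable-exon reads joined to constant exons was 97.7% in place of 98.1%; without the class Genomic it was 98.4%. No paired analysis was possible because there is 1 group. With 1 read worth 0.933 and 1.33 RPM, members with under 10 reads cannot be ranked.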

Other observations

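Antisense reads were few in all 3 clusters. Their sums were 14 reads in replicate 1 and 10 in replicate 2 in the gamma cluster, 3 and 2 in the alpha cluster and 2 and 2 in the beta cluster. BC037039, annotated antisense to the gamma C-type region, had 4 reads in replicate 1 and 0 in replicate 2.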
